A study of Mus musculus with 9 samples.

Results

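The nuclear genes that encode subunits of the 5 complexes of oxidative phosphorylation were examined in RNA sequencing libraries of mouse testis from postnatal day 7. Members were the rows of the count table whose identifier belongs to a protein-coding gene with a name beginning Ndufa, Ndufb, Ndufc, Ndufs or Ndufv and a digit, Uqcr, Cox4 to Cox8 or Atp5, or named Sdha to Sdhd or Cyc1. They numbered 86 of the 56691 rows of the table: 35 in complex I, 4 in complex II, 9 in complex III, 20 in complex IV and 18 in complex V. Ndufa4 and its paralog Ndufa4l2 were placed in complex IV, where the Ndufa4 protein is found. A further 12 rows carried such a name but belonged to no protein-coding gene and were left out. After a filter on low counts 80 members could be tested, namely 34, 4, 9, 16 and 17 of complexes I to V. The 6 others were Ndufa1, Cox4i2, Cox6a2, Cox8b, Cox8c and one of a pair of identifiers named Atp5o, which had 0 counts in every library.

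The libraries form 3 groups of 3: wild type (WT), Gm1142 knockout (labelled Gm1142-/-), and double knockouts of Gm1142 and Gm4779 (labelled Gm1142-/- Gm4779-/-). Libraries of the middle group are called Gm1142 KO-labelled below. All are testes at day 7, a tissue of Sertoli, Leydig, peritubular and germ cells among others; no source used here gives the strain or the kind of knockout allele. The labels number the libraries of a group without saying whether they came from separate animals, so p-values measure the spread between these libraries, which may in part be technical. The libraries held 4514237 to 5091624 counts in WT, 4597447 to 5243756 under the Gm1142-/- label and 4370124 to 8359594 in the double knockout. Gm1142 (listed as 8030474K03Rik) had 56, 50 and 41 counts in WT, 65, 46 and 50 in the Gm1142 KO-labelled libraries and 0 in each double knockout. Its count was therefore not lower in the Gm1142 KO-labelled libraries, and every direction given for them below is a direction between libraries as labelled. Gm4779 had 42 to 53 counts in WT, 59 to 88 in the Gm1142 KO-labelled libraries and 0 in each double knockout. Mitochondrially encoded genes took 29.4% to 32.7% of counts in WT, 32.5% to 38.9% in the Gm1142 KO-labelled libraries and 27.1% to 32.9% in the double knockout. The 15 Sertoli markers summed to 1532 to 1690 CPM and the 11 Leydig markers to 1267 to 1510 CPM in WT, as a check of the tissue. Germ cell markers, 15 genes, summed to 507 to 609 CPM in WT, 491 to 593 CPM in the Gm1142 KO-labelled libraries and 802 to 990 CPM in the double knockout.

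Oxidative phosphorylation couples the oxidation of nutrients to the making of ATP at the inner mitochondrial membrane. Complex I (NADH dehydrogenase) and complex II (succinate dehydrogenase) pass electrons to ubiquinone, complex III to cytochrome c and complex IV (cytochrome c oxidase) to oxygen. Complexes I, III and IV pump protons, and complex V (ATP synthase) uses the return of those protons to make ATP. A few subunits of complexes I, III, IV and V come from mitochondrial DNA, while the rest, and all of complex II, come from the nucleus. The testis is known for isoforms of its own, among them Cox6b2, Cox7b2 and Cox8c of complex IV.

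Promoters of nuclear subunit genes are known for binding sites of NRF1, of ETS factors such as GABP, of YY1 and of estrogen-related receptors (ERR). RefSeq promoters, from 250 bases before to 50 after each start (GRCm38.p6, an older build than the mm39 that the submitters' processing notes name) were searched on both strands for CGCATGCG (NRF1 core), CCGGAAG (ETS), AAGATGGCG (YY1) and CAAGGTCA (ERR element). Shown here are members on which the results below turn: Atp5l and Atp5g3, higher in the Gm1142 KO-labelled libraries and holding such letters, Cox5a, higher and holding none, and Atp5g1 and Ndufa6, lower and holding none. Each is taken from the 250 bases before the RefSeq start, without bases next to the start that lie in an annotated exon (39 in Atp5g1 and 31 in Ndufa6), 5′ to 3′ on the gene's strand, with matches in capitals (chr9:44920743-44920992, minus strand, for Atp5l; chr2:73911327-73911576, minus strand, for Atp5g3; chr9:57520982-57521231, plus strand, for Cox5a; chr11:96075671-96075881, minus strand, for Atp5g1; chr15:82354323-82354541, minus strand, for Ndufa6).
Atp5l: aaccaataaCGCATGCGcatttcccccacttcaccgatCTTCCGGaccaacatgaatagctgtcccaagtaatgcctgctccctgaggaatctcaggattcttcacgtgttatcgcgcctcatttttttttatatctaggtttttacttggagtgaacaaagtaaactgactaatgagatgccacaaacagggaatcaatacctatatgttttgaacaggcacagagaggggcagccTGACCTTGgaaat
Atp5g3: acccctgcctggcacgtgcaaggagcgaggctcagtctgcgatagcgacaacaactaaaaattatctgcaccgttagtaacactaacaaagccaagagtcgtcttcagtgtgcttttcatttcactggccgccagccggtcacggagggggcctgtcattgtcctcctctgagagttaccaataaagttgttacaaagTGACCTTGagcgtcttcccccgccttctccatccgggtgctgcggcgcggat
Cox5a: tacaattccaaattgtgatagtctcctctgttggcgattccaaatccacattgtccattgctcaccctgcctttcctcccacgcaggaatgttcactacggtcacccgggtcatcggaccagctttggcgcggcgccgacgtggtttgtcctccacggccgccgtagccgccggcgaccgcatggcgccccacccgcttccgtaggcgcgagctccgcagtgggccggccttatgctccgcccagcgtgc
Atp5g1: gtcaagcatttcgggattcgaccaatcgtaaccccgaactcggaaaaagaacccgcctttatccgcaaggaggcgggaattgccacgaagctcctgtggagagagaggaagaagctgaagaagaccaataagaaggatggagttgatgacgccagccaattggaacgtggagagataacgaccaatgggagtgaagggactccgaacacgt
Ndufa6: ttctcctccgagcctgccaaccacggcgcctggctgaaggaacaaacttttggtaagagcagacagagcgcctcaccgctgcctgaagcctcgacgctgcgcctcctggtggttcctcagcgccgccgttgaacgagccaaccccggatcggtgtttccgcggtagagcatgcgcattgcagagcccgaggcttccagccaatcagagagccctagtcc
In the Atp5l window the capitals mark the NRF1 core at -241, an ETS match at -212 and an ERR element at -13 from the start, and the window overlaps an exon of the neighbouring Gm30934. In Atp5g3 they mark an ERR element at -52. Of the 66 members with an entry among 27025 promoters, 9 (13.6%) held the NRF1 core, against 2.07% of all promoters. The ETS letters were in 16 (24.2%, against 9.93%), those of YY1 in 7 (10.6%, against 1.64%) and the ERR element in 4 (6.06%, against 1.76%). Of the members with an entry, 12 were higher in the Gm1142 KO-labelled libraries than in WT, 5 were lower and 47 were not called. Among the 12 higher, 1 held the NRF1 core, 3 the ETS, 2 the YY1 and 2 the ERR letters. Among the 47 not called, these counts were 8, 13, 5 and 2 in the same order. No match was found among the 5 lower. Whether matches differ between these sets was not tested. A match is a description of letters in these windows and not of a bound factor.

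Levels are CPM values, read counts scaled to the size of the library. Where genes are compared with each other they are divided by exonic length in kilobases. That length counts all annotated exons of a gene over its transcripts, so orders and shares per kilobase depend on the annotation. Cox6c had 144 CPM in WT against 129 CPM for Cox6b2, but 40.3 against 116 CPM per kilobase, with 3567 and 1108 exonic bases. Among the 80 tested members in WT, levels per kilobase ran from 1.93 (Ndufa4l2) to 116 (Cox6b2), with a median of 13.9. The most abundant subunits per kilobase were Cox6b2 and Cox7c (84.3 ± 11 CPM per kilobase, SD, n = 3) in complex IV and Atp5b, the catalytic beta subunit (68.5 ± 1.7), and Atp5c1, the central-stalk gamma subunit (64.0 ± 9.8), in complex V. In complex I it was Ndufa6 in WT (56.3 ± 3.2), with Ndufa3 at 37.7 ± 1.2, while in the Gm1142 KO-labelled libraries Ndufa3 (65.2 ± 15) stood above Ndufa6 (32.8 ± 5.1). Uqcrh, the hinge protein of complex III, stood at 40.4 ± 5.2 and Sdha, the flavoprotein of complex II, at 38.8 ± 3.0.

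In the Gm1142 KO-labelled libraries, 17 of the 80 tested members were higher than in WT and 5 were lower (edgeR quasi-likelihood test, Benjamini-Hochberg adjusted p under 0.05 over 17251 genes). Of all genes tested, 10.2% were higher and 8.38% lower. The share of members called higher was 21.25%, above that background, and the share called lower, 6.25%, was near it. The median log2 fold change of the members was 0.28, against -0.01 for all genes tested, and 62 members had a positive and 18 a negative value. Groups did not overlap for 31 members on the higher side, against 18.7% of all genes, and for 7 on the lower side, against 17.2%. In bulk tissue, a change in the share of cells that are rich in these transcripts and a change in transcripts per cell cannot be told apart.

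**Figure D1:**
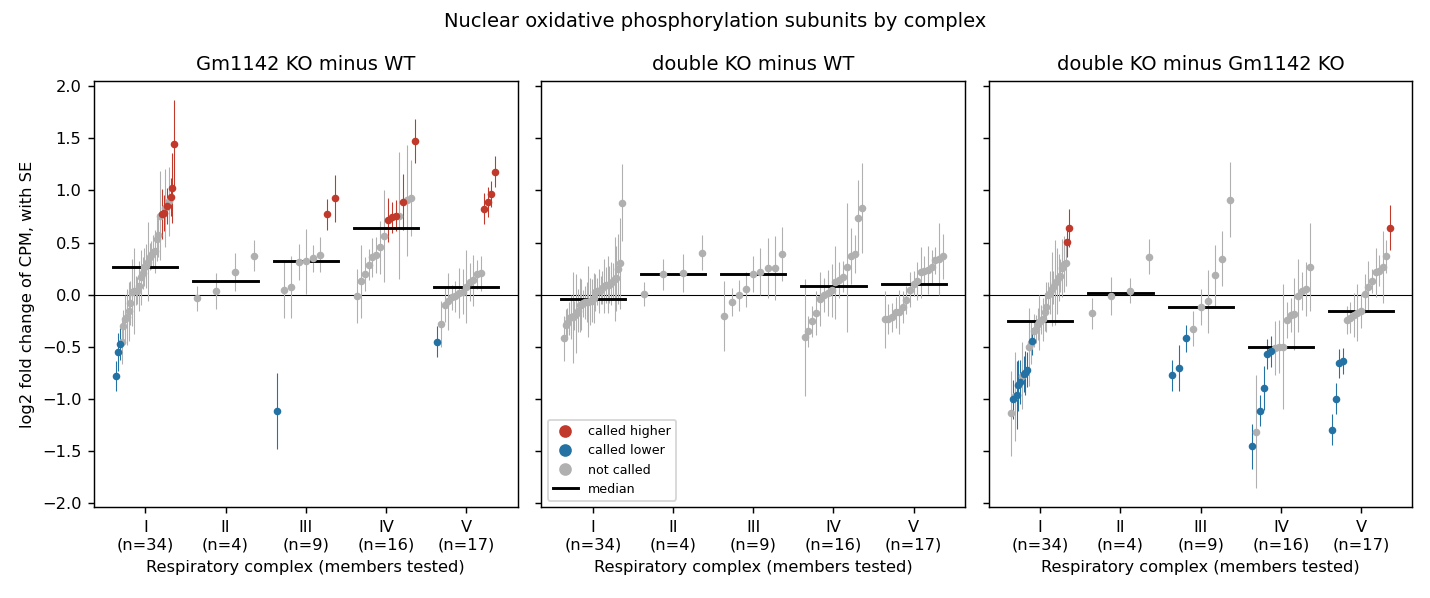
Log2 fold change (y axis, with standard error) of each tested member, grouped by respiratory complex (x axis), in the 3 comparisons; red points were called higher, blue lower, grey not called, and the bar is the median of the complex. Complex IV has the highest median against WT in the Gm1142 KO-labelled libraries (0.64) and no member of any complex is coloured in the double knockout against WT.

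The complexes had different counts. Over all genes tested 10.2% were higher and 8.38% lower. In complex IV 5 of 16 tested members were higher (31.25%) and none was lower, with a median of 0.64. Complex I had 6 higher (17.6%) and 3 lower (8.82%) of 34 (median 0.27). Complex III had 2 higher (22.2%) and 1 lower (11.1%) of 9 (0.32), and complex V 4 higher (23.5%) and 1 lower (5.88%) of 17 (0.08). The lower shares of complexes I, III and V lay near that of all genes. None of the 4 genes of complex II was called (0.13). With Ndufa4 and Ndufa4l2 counted in complex I, as their names have it, complex IV had 4 of 14 higher and a median of 0.51. Whether the complexes differ from each other was not tested.

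Summed over its genes, complex IV stood at 563, 603 and 627 CPM in WT, at 743, 998 and 839 CPM in the Gm1142 KO-labelled libraries, and at 571, 490 and 672 CPM in the double knockout. The WT and double knockout libraries overlap, and all 3 Gm1142 KO-labelled libraries lie above both. Complex III went from 279 ± 16.9 CPM in WT to 373 ± 27.3 CPM and stood at 293 ± 6.03 CPM in the double knockout. Complex V had 1241 ± 43.4, 1491 ± 74.1 and 1300 ± 44.9 CPM in the same order, and complex I 1045 ± 47.3, 1172 ± 118 and 997 ± 62.6 CPM. Complex II had 252 ± 15.2, 264 ± 11.6 and 270 ± 17.4 CPM. All members together made up 0.347% to 0.354% of counts in WT, 0.380% to 0.385% in the Gm1142 KO-labelled libraries and 0.357% to 0.360% in the double knockout. The size of the step depends on the denominator: the log2 ratio of the members' share, Gm1142 KO-labelled libraries to WT, was 0.13 over all counts and 0.24 over counts outside mitochondrially encoded genes.

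**Figure D2:**
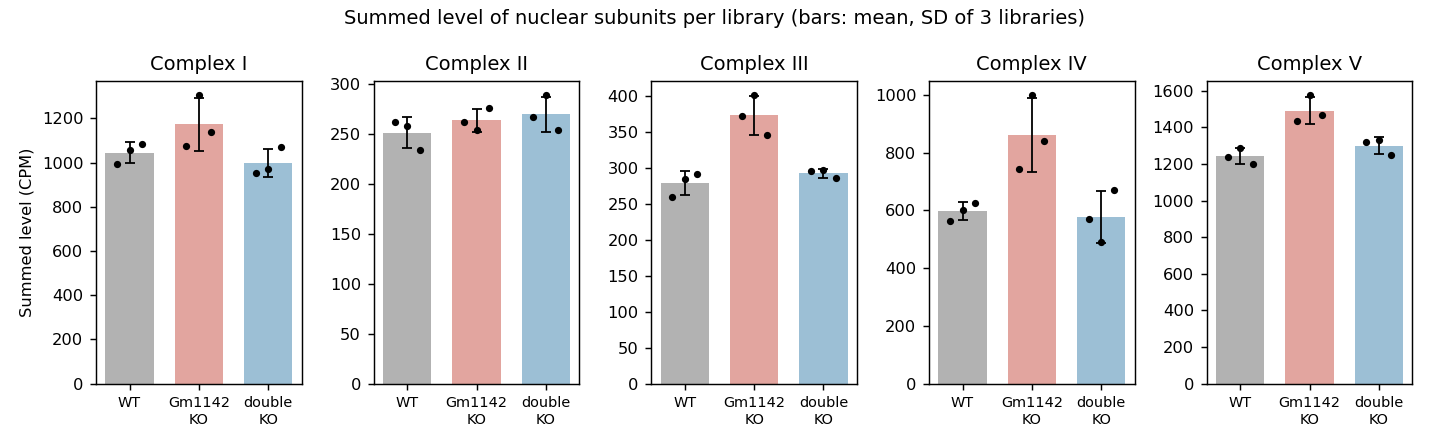
Summed CPM (y axis) of the members of each complex in WT, Gm1142 KO-labelled libraries and double knockout; points are libraries, bars the mean and lines the SD of 3 libraries. The Gm1142 KO-labelled points of complexes III, IV and V lie above all WT points of the same panel, and those of complex II overlap.

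The library numbered 2 among those labelled Gm1142 knockout stands out in these genes. It held the highest level of the 9 libraries for all 17 members called higher, and for 43 of the 80 tested. It also had the highest mitochondrial share (38.9%) and the smallest scaling factor (0.856). Without it 12 members were higher and 5 lower, and the median was 0.21. Of the 5 members called lower, 4 had their lowest level in the library numbered 1 of that group. Without that library 1 member was called lower. The same count was found without WT 1, WT 2, WT 3 or number 3 of that group. The part of mitochondrial share and scaling in these differences was not tested.

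Complex I takes electrons from NADH through 7 nuclear core subunits that carry its flavin and iron-sulfur clusters, surrounded by accessory subunits that assemble and stabilise it. None of the 7 core genes was called in the Gm1142 KO-labelled libraries, with a median of 0.21 and 6 positive values; the smallest adjusted p was 0.0552. For 3 core genes the groups did not overlap, on the higher side, against 18.7% of all genes. All 9 calls were among the 27 tested accessory genes, 6 higher (22.2%) and 3 lower (11.1%). Over all genes tested the shares were 10.2% and 8.38%. Whether core and accessory genes differ was not tested. Ndufs4, an accessory subunit of the matrix arm whose loss in mice gives a Leigh-like disease, had 24.5, 31.5 and 23.0 CPM in WT, 46.6, 58.3 and 46.7 CPM in the Gm1142 KO-labelled libraries and 26.4, 20.9 and 28.8 CPM in the double knockout. Its Gm1142 KO-labelled libraries all lie above the rest, with a log2 fold change from WT of 0.93 (SE 0.18, edgeR adjusted p = 0.00126). Ndufb7, an accessory subunit of the membrane arm, had 32.5, 29.8 and 35.96 CPM in WT and 48.4, 70.1 and 58.8 CPM in the Gm1142 KO-labelled libraries (0.85, SE 0.17). Ndufa3, another membrane-arm subunit, went from 37.5, 38.2 and 39.8 CPM to 60.2, 84.4 and 55.2 CPM (0.78, SE 0.17). Neither gene's groups overlap.

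The other accessory genes called higher are expressed at lower levels or share exonic bases with another gene. Ndufb6 had 2.11 to 4.31 CPM in WT and 6.99 to 9.97 CPM in the Gm1142 KO-labelled libraries (log2 fold change 1.44, SE 0.42), Ndufb11 3.55 to 8.18 and 9.71 to 13.6 CPM (1.02, SE 0.33), and Ndufa13, also known as Grim19, 14.4 to 15.1 and 17.3 to 32.5 CPM (0.77, SE 0.24). The groups do not overlap for any of them. The calls of Ndufb6 and Ndufb11 were lost without WT 1, WT 2 or the Gm1142 KO-labelled library numbered 2 or 3 (adjusted p up to 0.0993 and 0.160), and that of Ndufa13 without any WT library or number 1 or 2 of the other group (up to 0.158). Exons of other genes cover 39.0% of the exonic bases of Ndufb6 (Smim27), 12.9% of Ndufb11 (Rbm10) and 30.0% of Ndufa13 (Tssk6), and no source used here gives the strand setting of the counting, so reads of the overlapping genes cannot be told apart.

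Ndufa6 was the clearest member in the other direction. It encodes an accessory subunit of the LYR family, which binds the mitochondrial acyl carrier protein within complex I. Its level was 94.9, 103 and 106 CPM in WT, 50.7, 69.0 and 57.5 CPM in the Gm1142 KO-labelled libraries and 85.1, 72.5 and 94.7 CPM in the double knockout. The Gm1142 KO-labelled libraries lie below all others, by -0.78 on the log2 scale from WT (SE 0.15, edgeR adjusted p = 7.51e-04), and the call held in every alternative. Ndufb5 fell from 32.0, 32.1 and 37.3 CPM to 19.2, 25.3 and 24.9 CPM (-0.55, SE 0.18) and Ndufb2 from 54.0, 58.0 and 58.1 CPM to 39.0, 45 and 38.8 CPM (-0.47, SE 0.15). Both are membrane-arm subunits, and both calls were lost when any of 5 libraries was left out (all WT libraries and numbers 1 and 3 of those labelled Gm1142 knockout), with adjusted p up to 0.148 and 0.123. Mrpl47 covers 12.3% of the exonic bases of Ndufb5, and Braf and a pair of other genes 7.94% of those of Ndufb2.

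**Figure D3:**
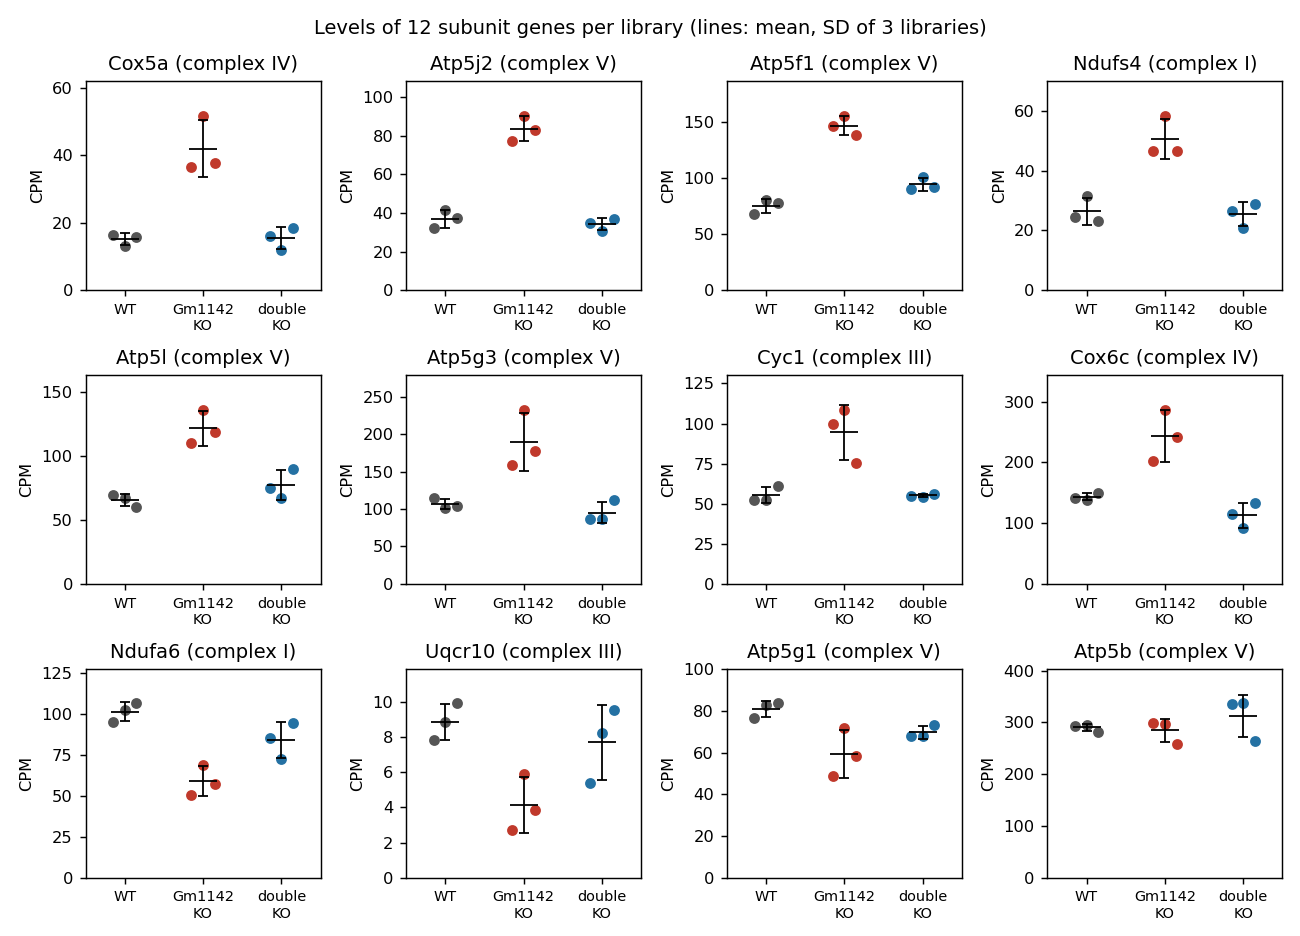
CPM (y axis, from 0) of 12 members in each library of WT, Gm1142 KO-labelled libraries and double knockout, with the mean and SD of 3 libraries. The 8 genes of the upper rows are higher in all Gm1142 KO-labelled libraries than in WT, Ndufa6, Uqcr10 and Atp5g1 are lower, and Atp5b overlaps between groups.

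Complex II, which oxidises succinate in the tricarboxylic acid cycle and holds no mitochondrially encoded subunit, had no called gene in any comparison. Sdha had 167, 167 and 146 CPM in WT, 158, 150 and 161 CPM in the Gm1142 KO-labelled libraries and 162, 171 and 148 CPM in the double knockout, and these overlap (log2 fold changes of -0.03 and 0.00 from WT, SE 0.12 for both). Sdhb, the iron-sulfur subunit, had 29.9, 26.2 and 27.1 CPM in WT, 25.6, 29.9 and 30.0 CPM in the Gm1142 KO-labelled libraries and 32.7, 37.7 and 39.6 CPM in the double knockout. The double knockout libraries lie above all others for this gene without passing the test (0.40 from WT, SE 0.17, edgeR adjusted p = 0.483). Sdhc and Sdhd, the membrane anchors, differed between WT and the Gm1142 KO-labelled libraries by 0.37 (SE 0.15) and 0.22 (SE 0.18), with groups that do not overlap and adjusted p of 0.0932 and 0.459.

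Complex III moves electrons from ubiquinol to cytochrome c through cytochrome b, the Rieske protein and cytochrome c1. Cyc1, which encodes cytochrome c1, had 52.6, 52.6 and 60.9 CPM in WT, 99.4, 109 and 75.2 CPM in the Gm1142 KO-labelled libraries and 55.1, 54.4 and 56.2 CPM in the double knockout (log2 fold change 0.77 from WT, SE 0.15, edgeR adjusted p = 9.78e-04). Uqcrq, a small subunit of the membrane part, had 10.5, 11.8 and 12.5 CPM in WT and 19.2, 23.8 and 23.2 CPM in the Gm1142 KO-labelled libraries (0.92, SE 0.22). The 2 groups do not overlap for either gene. Uqcr10, another small subunit, lay on the other side, with 7.85, 8.87 and 9.91 CPM in WT and 2.72, 5.88 and 3.83 CPM (-1.12, SE 0.36, edgeR adjusted p = 0.0354), a call that was lost without any of the same 5 libraries as for Ndufb5 (adjusted p up to 0.127). The core proteins Uqcrc1 and Uqcrc2 and the hinge protein Uqcrh were not called, at 0.35 (SE 0.13), 0.31 (SE 0.17) and 0.38 (SE 0.17).

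Complex IV reduces oxygen, with its catalytic core from mitochondrial DNA and its nuclear subunits around it. Cox5a, a nuclear subunit on the matrix side, had the largest change of any member, with 16.5, 13.0 and 15.7 CPM in WT, 36.5, 51.6 and 37.7 CPM in the Gm1142 KO-labelled libraries and 16.1, 11.96 and 18.3 CPM in the double knockout. The Gm1142 KO-labelled libraries lie above all others, at a log2 fold change from WT of 1.47 (SE 0.21, edgeR adjusted p = 6.90e-05). An annotated gene, Gm26631, covers 12.8% of its exonic bases. Cox6c, a small membrane subunit, had 142, 139 and 150 CPM in WT, 202, 287 and 241 CPM in the Gm1142 KO-labelled libraries and 115, 91.5 and 132 CPM in the double knockout. Its value is 0.76 (SE 0.15), again without overlap. Cox4i1, the widely expressed form of the largest nuclear subunit, went from 37.1, 39.8 and 38.8 CPM to 61.2, 73.6 and 59.0 CPM (0.74, SE 0.15). Ndufa4 (0.89, SE 0.27) and Cox7b (0.72, SE 0.21) were called too; both calls were lost without WT 1, WT 2 or the Gm1142 KO-labelled library numbered 2, and that of Ndufa4 also without number 3 (adjusted p up to 0.0962 and 0.107). The other 11 tested members were not called, among them Cox7c (0.19, SE 0.16) and Cox7a2 (-0.01, SE 0.26).

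Several subunits of complex IV exist as a widespread form and one restricted to certain tissues. Cox6b2, the testis form of subunit 6b, had 603, 660 and 658 counts in WT and Cox6b1 104, 69 and 122. Per kilobase of exon, Cox6b2 held 80.7% ± 4.55 (SD, n = 3) of the pair in WT, 78.8% ± 3.75 in the Gm1142 KO-labelled libraries and 78.1% ± 3.05 in the double knockout, and the groups overlap. Cox7b2, also known from testis, held 37.7% ± 9.33, 42.2% ± 7.08 and 53.6% ± 8.37 of its pair with Cox7b in the same order, again with overlapping libraries. Cox8c, another testis form, had 0 to 2 counts in WT and at most 11 in any library, and Cox8b, known from heart and muscle, 0 to 6. Cox8a accordingly held 97.0% ± 5.25 of the family per kilobase in WT. The lung form Cox4i2 had 0 to 10 counts in a library and the heart and muscle form Cox6a2 2 to 11, and their widespread forms Cox4i1 and Cox6a1 held 94.9% ± 3.73 and 77.3% ± 13.2 of the pairs per kilobase in WT. Cox7a1, the muscle form of subunit 7a, stood at 4.58 CPM per kilobase in WT, Cox7a2 at 19.2 and Cox7a2l, a factor of supercomplex assembly, at 27.6. Ndufa4l2 stood at 1.93 CPM per kilobase in WT and Ndufa4 at 9.05. In none of these families were isoform shares tested.

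**Figure D4:**
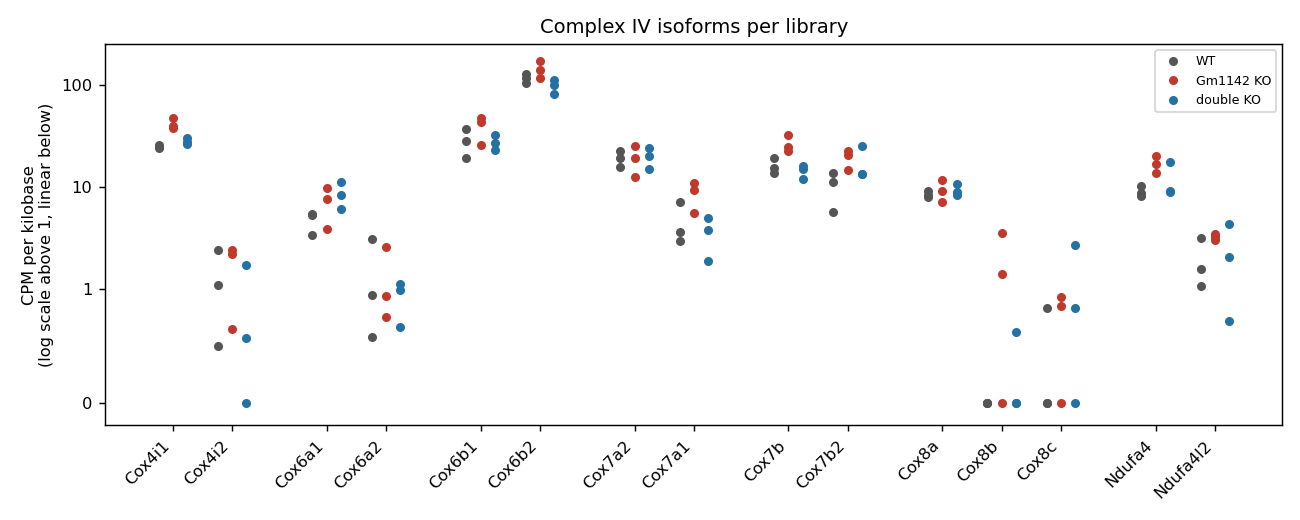
CPM per kilobase of exon (y axis, log scale above 1 and linear below) of complex IV genes with a widespread and a restricted form (x axis), with 1 point per library. Cox6b2 lies above Cox6b1 in each library, and Cox4i2, Cox6a2, Cox8b and Cox8c lie below their widespread forms.

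Complex V consists of a catalytic head (F1), a membrane part with the ring of c subunits, and a peripheral stalk between them. None of the 5 head genes was called in the Gm1142 KO-labelled libraries, with a median of -0.07: Atp5b had 293, 296 and 282 CPM in WT and 299, 297 and 259 CPM in the Gm1142 KO-labelled libraries, which overlap (-0.03, SE 0.12). In the stalk 1 of 4 tested genes was higher, and in the membrane part 2 of 4. In the c ring 1 of 3 was higher and 1 lower. Over all genes tested 10.2% were higher and 8.38% lower. Whether calls differ between these small sets was not tested. Atp5f1, the stalk's b subunit, had 68.1, 80.0 and 77.5 CPM in WT, 147, 155 and 138 CPM in the Gm1142 KO-labelled libraries and 89.9, 101 and 92.4 CPM in the double knockout. The 3 groups do not overlap, and the step from WT to the Gm1142 KO-labelled libraries was 0.96 (SE 0.13, edgeR adjusted p = 1.98e-05). Exons of Wdr77 and Gm42890 cover 8.21% of its exonic bases. The other 3 tested stalk genes, Atp5h, Atp5j and Atp5o, were not called, at -0.01, 0.19 and 0.14.

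In the membrane part, Atp5j2 (subunit f) had 32.0, 41.4 and 37.3 CPM in WT, 77.3, 90.3 and 83.1 CPM in the Gm1142 KO-labelled libraries and 35.0, 30.7 and 36.9 CPM in the double knockout. Its Gm1142 KO-labelled libraries all stand above the others (log2 fold change from WT 1.18, SE 0.15, edgeR adjusted p = 1.65e-05). Atp5l (subunit g) had 69.3, 67.2 and 60.5 CPM in WT and 110, 136 and 118 CPM in the Gm1142 KO-labelled libraries (0.89, SE 0.14), also without overlap. Atp5k (subunit e) and Atp5mpl were not called, at 0.08 (SE 0.35) and 0.03 (SE 0.21).

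The c ring is encoded by 3 genes, whose mature proteins are identical and which differ in the targeting sequence that is cut off on import. Atp5g3 had 115, 102 and 104 CPM in WT, 158, 233 and 177 CPM in the Gm1142 KO-labelled libraries and 87.3, 86.6 and 112 CPM in the double knockout (log2 fold change 0.83 from WT, SE 0.15, edgeR adjusted p = 5.20e-04). Atp5g1 moved the other way, with 76.6, 83.0 and 83.6 CPM in WT, 48.7, 71.6 and 58.2 CPM in the Gm1142 KO-labelled libraries and 67.9, 67.8 and 73.4 CPM in the double knockout (-0.45, SE 0.15, edgeR adjusted p = 0.0351). The Atp5g1 call too was lost without any of the 5 libraries named for Ndufb5, with adjusted p up to 0.159. Atp5g2 was not called (0.20, SE 0.17). Of the counts of the 3 genes together, Atp5g1 held 34.0%, 37.9% and 36.8% in WT, 19.5%, 20.5% and 21.4% in the Gm1142 KO-labelled libraries and 34.9%, 36.4% and 32.4% in the double knockout. The Atp5g3 share was 47.7% ± 2.74, 65.1% ± 1.66 and 46.9% ± 2.28 in the same order. For both genes the shares in WT and the double knockout overlap, and those of the Gm1142 KO-labelled libraries lie apart from both. These shares do not depend on how libraries are scaled, and no test was made of them.

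**Figure D5:**
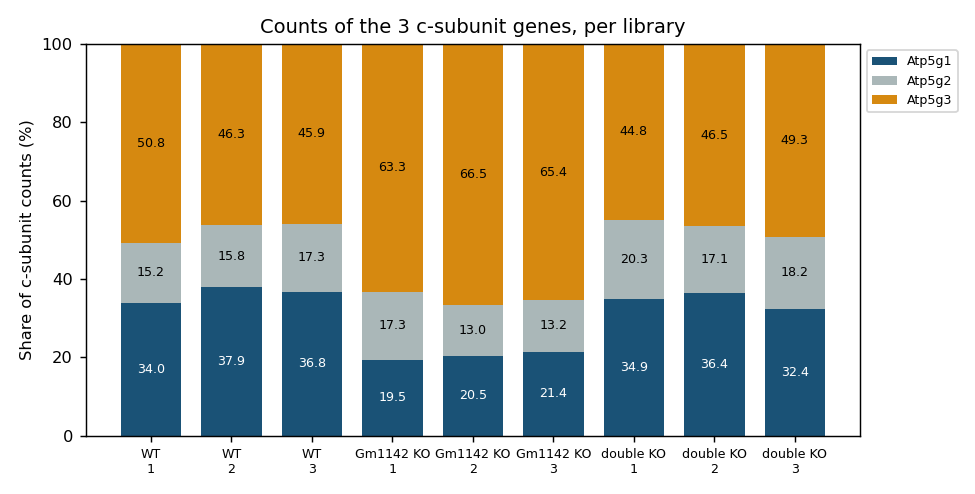
Share (y axis, percent) of Atp5g1, Atp5g2 and Atp5g3 in the summed counts of these 3 genes, with 1 bar per library. Atp5g1 makes up 19.5% to 21.4% in the Gm1142 KO-labelled libraries and 32.4% to 37.9% in the other 6.

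In the double knockout, no member was called against WT in either direction; 0.0464% of all genes were called higher and as many lower. The same count of 0 was found with DESeq2 and limma-voom and in every alternative run. At an unadjusted p under 0.05 there were 5 members (Ndufb9, Sdhb, Cox6c, Cox7a2l and Atp5f1), against 8.95% of all genes. The median of the members was 0.05 and 46 had positive values. The groups did not overlap for 8 members on the higher and 4 on the lower side, against 8.28% and 7.57% of all genes. Atp5f1 had the smallest adjusted p (0.450, edgeR), at a log2 fold change of 0.33 (SE 0.13). Ndufb9, named here after its values were seen, had the largest estimate, 0.88 (SE 0.37), at 2.68 to 3.75 CPM in WT and 5.74 to 6.12 CPM in the double knockout. For abundant subunits the estimates were narrow: Atp5b differed by 0.11 (SE 0.12), Sdha by 0.00 (SE 0.12) and Cox5a, at a lower level, by 0.02 (SE 0.22). Of the 14 tested germ cell markers 3 (Dazl, Uchl1 and Sycp1) were called higher in the double knockout than in WT and 0 lower, and the summed levels of the list given above do not overlap; their part in these values was not tested.

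Between the double knockout and the Gm1142 KO-labelled libraries, 20 members were lower in the double knockout and 3 higher, against 10.1% and 9.07% of all genes. This comparison shares the Gm1142 KO-labelled libraries with the first, so its values are not independent of those above. By complex, the count of lower members was 8 in I, 3 in III, 5 in IV and 4 in V, and the 3 higher ones were Ndufa6 (0.51, SE 0.15), Ndufb5 (0.64, SE 0.18) and Atp5d, the delta subunit of the head (0.64, SE 0.22). Among the called members the largest differences were in Cox5a (-1.45, SE 0.21), Atp5j2 (-1.29, SE 0.15) and Cox6c (-1.11, SE 0.15, edgeR adjusted p = 2.80e-05). The median of the members was -0.19, against 0.03 for all genes. The groups did not overlap for 27 members on the lower side, against 17.1% of all genes, and for 6 on the higher side, against 16.3%. Several members were called in this comparison and not in that of the Gm1142 KO-labelled libraries with WT. Ndufa5, an accessory subunit of the matrix arm, had 8.16, 14.6 and 9.59 CPM in the Gm1142 KO-labelled libraries and 4.02, 5.87 and 6.57 CPM in the double knockout (-0.96, SE 0.33), and Ndufc1, a membrane-arm subunit, 23.2 ± 2.81 and 13 ± 1.05 CPM (-0.83, SE 0.21). The core gene Ndufs7 (-0.75, SE 0.21), Uqcrc1 (-0.42, SE 0.13) and the testis form Cox6b2 (-0.54, SE 0.15) were lower as well. For Cox6b2 the Gm1142 KO-labelled libraries had 129, 190 and 154 CPM and the double knockout 111, 90.9 and 123 CPM, without overlap. Of the 23 calls 13 were made in each of 9 fits with a library left out, and 8 in all 19 alternatives, those fits included. Ndufa5 and Atp5d were called in 2 of those 9 fits (adjusted p up to 0.217 and 0.154), Uqcrc1 in 4, Ndufa6 and Uqcrq in 5, Ndufb5, Cox6b2 and Ndufa13 in 7 and Ndufs7 in 8. Without the libraries numbered 2 of both knockout groups, 9 members were called lower in place of 20. Between the same groups 7 of 14 tested germ cell markers were called higher and 0 lower in the double knockout. Of 5 tested red cell markers 2 were lower. The 7 markers of epididymis and duct summed to 72.5 to 95.0 CPM in WT, 71.3 to 74.6 CPM in the Gm1142 KO-labelled libraries and 34.2 to 52.8 CPM in the double knockout, with 2 of 6 tested genes (Cdh16 and Lcn2) lower in the double knockout than in the Gm1142 KO-labelled libraries and none called against WT. The part of these cells in the members' values was not tested.

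Of the 22 members called between the Gm1142 KO-labelled libraries and WT, 13 were called in each of 9 fits with a library left out and in all 19 alternatives, those fits included: Cox5a, Atp5j2, Atp5f1, Ndufs4, Uqcrq, Atp5l, Ndufb7, Atp5g3, Ndufa3, Cyc1, Cox6c and Cox4i1 on the higher side and Ndufa6 on the lower. Exonic bases shared with other genes were found in 30 of the 86 members. Among the 52 tested members without such bases, 8 were higher (15.4%) and 3 lower (5.77%) in the Gm1142 KO-labelled libraries than in WT, with a median of 0.20. The shares over all genes were 10.2% and 8.38%. Of the genes just named, other genes cover 9.94% of the exonic bases of Cox4i1 (Emc8) and 7.01% of those of Cox6c (Vps13b). They cover 2.06% in Atp5l (Gm30934) and 0.391% in Ndufa3 (Tfpt). Overlaps of Cox5a and Atp5f1 are given above. The median exonic length of members was 1631 bases, against 3943 for all genes tested. From WT to the Gm1142 KO-labelled libraries, the median log2 fold change of all genes was 0.11 for exonic lengths up to 1000 bases and -0.03 above 4000. Spearman's rho with exonic length was -0.04 over 16803 genes, which are not independent replicates. The members' medians were 0.24 up to 1000 bases, 0.25 from there to 2000, 0.37 to 4000 and 0.01 above. The median exonic length was 2101 bases for members called higher, 4912 for those called lower and 1486.5 for those not called.

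Genes that serve the complexes without being subunits were counted from lists of known roles. Their counts stand beside the shares over all genes, which were 10.2% higher and 8.38% lower in the Gm1142 KO-labelled libraries than in WT, and 9.07% higher and 10.1% lower in the double knockout than in the Gm1142 KO-labelled libraries. Of 46 tested assembly factors 8 were higher (17.4%) and 5 lower (10.9%) in the Gm1142 KO-labelled libraries than in WT, with a median of 0.12. Cox11, a copper chaperone of complex IV, had 2.68, 4.14 and 3.66 CPM in WT, 14.2, 18.4 and 17.0 CPM in the Gm1142 KO-labelled libraries and 8.42, 6.66 and 6.57 CPM in the double knockout. Its 3 groups do not overlap, with a log2 fold change of 2.24 (SE 0.30) between the first pair. Hccs, which attaches heme to cytochromes c and c1, rose by 1.15 (SE 0.21) and Nubpl, which delivers iron-sulfur clusters to complex I, by 1.01 (SE 0.19). In the double knockout 9 assembly factors were lower (19.6%) and 4 higher (8.70%) than in the Gm1142 KO-labelled libraries; Bcs1l, which inserts the Rieske protein into complex III, differed by -0.86 (SE 0.19).

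Of 15 genes of ubiquinone synthesis and cytochrome c, 3 were higher (20%) and 1 lower (6.67%) against WT, among them Pdss2, which makes the ubiquinone side chain (1.15, SE 0.28), Coq10b, a ubiquinone-binding protein (0.76, SE 0.24), and Cyct, the testis cytochrome c (1.06, SE 0.35). Cyct had 4.98, 5.12 and 3.01 CPM in WT and 8.16, 9.46 and 10.01 CPM in the Gm1142 KO-labelled libraries. Of 17 genes of the tricarboxylic acid cycle and pyruvate dehydrogenase, 5 were higher (29.4%) and 1 lower (5.88%). Pdhb, a subunit of pyruvate dehydrogenase, rose by 0.58 (SE 0.13) and Ogdh, of the oxoglutarate dehydrogenase complex, by 0.57 (SE 0.15), while Idh3g, a subunit of the NAD-dependent isocitrate dehydrogenase, fell by 0.68 (SE 0.14) and its partner Idh3a rose by 0.56 (SE 0.14). Of 24 import and outer-membrane genes 6 were higher (25%) and none lower, with a median of 0.30, among them Tomm5 (1.12, SE 0.33), Timm9 (0.82, SE 0.14) and Tomm20 (0.70, SE 0.14).

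A further list held regulators of nuclear mitochondrial genes and factors that copy or transcribe mitochondrial DNA. Of its 14 tested genes 2 were higher (14.3%) and 1 lower (7.14%) in the Gm1142 KO-labelled libraries than in WT. All the called ones act on mitochondrial DNA. Twnk, the mitochondrial DNA helicase, differed by -0.75 (SE 0.21), Tfb2m, a factor of mitochondrial transcription, by 0.65 (SE 0.18) and Polg, the mitochondrial DNA polymerase, by 0.37 (SE 0.13). Gabpa, the DNA-binding subunit of GABP, was not called against WT (-0.32, SE 0.17) and was higher in the double knockout than in the Gm1142 KO-labelled libraries (0.48, SE 0.17). None of these nuclear lists had a called gene between the double knockout and WT.

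Of the 13 subunits encoded in mitochondrial DNA 10 could be tested, and 8 were higher in the Gm1142 KO-labelled libraries than in WT, with a median of 0.50. In the double knockout 3 of the 10 were higher than in WT, with a median of -0.04, and 7 were lower than in the Gm1142 KO-labelled libraries, with a median of -0.42. mt-Nd2, a core subunit of complex I, differed by 0.70 (SE 0.12) from WT, and it was lower in the double knockout than in those libraries by -0.67 (SE 0.12). The 3 genes called higher in both knockout groups were mt-Nd3, mt-Nd4l and mt-Co3. mt-Nd3 had 0, 4 and 4 counts in WT, 209 to 319 in the Gm1142 KO-labelled libraries and 186 to 267 in the double knockout, with fitted log2 fold changes from WT of 6.66 and 6.17. Those of mt-Nd4l were 4.37 and 4.25 and those of mt-Co3 4.48 and 4.78, and neither gene was called between the knockout groups. These values rest on at most 8 counts summed over WT and are uncertain, since near-identical nuclear copies exist for mitochondrial genes and no source used here says how reads with several matches were counted. In the red cell list, the 6 markers summed to 68.7 to 82.9 CPM in WT, 95.2 to 137 CPM in the Gm1142 KO-labelled libraries and 62.4 to 82.7 CPM in the double knockout. Of 5 tested red cell genes 1 (Hba-a1) was higher in the Gm1142 KO-labelled libraries than in WT, and no marker was at 0 in all libraries. Of 14 tested Sertoli markers 1 was higher (7.14%) and 3 were lower (21.4%) in the Gm1142 KO-labelled libraries than in WT. Of 9 tested Leydig markers 1 was higher (11.1%) and 3 were lower (33.3%), against 10.2% and 8.38% of all genes. From those libraries to the double knockout, 4 Sertoli markers were higher and 1 lower, and 3 Leydig markers higher and 1 lower. The shares over all genes were then 9.07% higher and 10.1% lower. Sums of both lists overlap between the groups. Macrophage markers, 6 genes, summed to 49.5 to 59.7 CPM in WT, 44.7 to 48.7 CPM in the Gm1142 KO-labelled libraries and 45.8 to 63.9 CPM in the double knockout, and none of them was called in any comparison. Sums of the peritubular, stromal, endothelial, striated muscle and adipocyte markers overlap between all groups. The part of these cell types in the results was not tested.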

How the data were processed

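Per the labels' protocols, mRNA of 9 testis samples was captured on oligo(dT) beads before library preparation. The authors deposited raw counts of reads per gene, a whole-number count in 1 column per library. Tools named by the submitters' processing notes are featureCounts, STAR, Bowtie2 and cutadapt, with the build mm39; the gene annotation, strandedness and handling of multiply mapped reads are not given in the sources used here. The members and lists were chosen with earlier results of these data known.

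Counts were analysed with edgeR 4.0.16 in R 4.3.3. The 17251 genes tested passed filterByExpr, run with the group factor (counts of at least 10, total of at least 15). After TMM scaling all 9 libraries entered a quasi-likelihood fit by group, which leaves 6 residual degrees of freedom. Calls need a Benjamini-Hochberg adjusted p under 0.05 across the genes tested. SE was taken from the log2 fold change and its F statistic, and CPM levels use TMM-scaled sizes. A floor of 3 counts in a library is 0.338 to 0.767 CPM, for counting error only. Exonic lengths, exon overlaps and gene types are from an annotation on GRCm38, matched by identifier. The script was tested on simulated data.

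Named genes were those called with the 4 largest changes per complex, direction and comparison, the 2 highest levels per kilobase in each complex, isoform families, the 4 Sdh genes, and the 3 largest called changes of each pathway list. The subunits Ndufab1 and Usmg5 and the ATP synthase inhibitor Atpif1, whose names fall outside the pattern, were looked up after seeing the data. So was Ndufb1-ps, which is not annotated as protein-coding. These genes are no members and were not called in any comparison. Alternatives were other size factors, filters, DESeq2 1.42.0, limma-voom (limma 3.58.1), a replicate block, removal of mitochondrial genes or of GC and length trends, and libraries left out. The values of 1 member are not reported here.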

Additional observations from a re-analysis of the deposited data

Results flagged for a closer look

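The rows that carry a subunit name but belong to no protein-coding gene are in no count of members above, and 4 of the 12 held more than the 3 counts that a count of 0 allows, summed over the 9 libraries. Ndufb1-ps, annotated as a noncoding RNA at a shared promoter although its name is that of a complex I subunit, had 719 counts, between 46 and 138 in each library. Of the 12 rows it was the one that passed the filter on low counts, and edgeR called it in no comparison, with log2 fold changes from WT of 0.55 (SE 0.29, adjusted p = 0.199) in the libraries labelled Gm1142 knockout and 0.53 (SE 0.28, adjusted p = 0.606) in the double knockout. The processed pseudogenes Ndufs6b, Atp5l-ps1 and Atp5l2-ps had 10, 6 and 4 counts.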

How the results depend on the processing

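The count of 0 members called between the double knockout and WT was the same in all alternatives. Of the 80 members, the libraries labelled Gm1142 knockout had 12 to 19 higher and 1 to 5 lower than WT with a library left out; lower members numbered 1 without WT 1, 2 or 3 or without the Gm1142 knockout libraries numbered 1 or 3, 3 without a filter, 3 with a minimum absolute log2 fold change of 0.5 and 3 among members without exon overlap, where 8 were higher (an alternative chosen after seeing the data). From those libraries to the double knockout, 0 to 3 were higher and 14 to 21 lower with a library left out. The higher count was 0 without the Gm1142 knockout library numbered 1, and 1 without its number 3, without double knockout 1 or 3, or among members without exon overlap. The lower count was 9 without the libraries numbered 2 of both knockout groups and 12 without exon overlap. The cause was not tested, except that the last set holds fewer genes.

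Same-numbered libraries of different groups deviated with correlations of -0.27 to 0.10, and 1 of 9 pairs was over 0.1. Differently numbered libraries gave -0.19 to 0.16, with 3 of 18 pairs over 0.1. These values show no sign of pairing by number, though they cannot exclude a shared litter or batch. A replicate block gave 17 higher and 4 lower members for the libraries labelled Gm1142 knockout against WT, 2 and 19 for the double knockout against them, and 0 for the double knockout against WT.

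The log2 ratio of the summed share of counts moved over counts outside mitochondrial genes. For the libraries labelled Gm1142 knockout to WT it became 0.11 in complex I (0.01 over all counts), 0.02 in II (-0.08, a turn in direction within the spread of the libraries), 0.37 in III (0.27), 0.47 in IV (0.36), 0.22 in V (0.11) and 0.24 over all members (0.13). For the double knockout to those libraries it became -0.17 in I (-0.05), 0.09 in II (0.21), -0.29 in III (-0.17), -0.14 in V (-0.02) and -0.22 over all (-0.09), and to WT 0.019 over all (0.036). Without the most abundant member of each complex the first ratio was 0.083 in II (-0.08 with it), 0.19 in V and 0.16 over all. The ratio of the double knockout to WT was then 0.29 in II (0.13 with it), and to the libraries labelled Gm1142 knockout -0.23 in IV, -0.11 in V and -0.13 over all. Of the changes of named members, none reversed. Tested members under about 5 CPM have standard errors above 0.3, as have some at higher levels, such as Atp5k (8.15 CPM in WT, SE 0.35). Against WT, estimates of 0.93 for Cox7b2 (SE 0.36) and 0.89 for Ndufa5 (SE 0.33) were not called in the Gm1142 KO-labelled libraries. Estimates well above 1 SE can thus stay uncalled, and the part of depth in this was not tested.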
